A study of Mus musculus with 8 samples.

Results

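Dividing cells enter mitosis, attach their chromosomes to a spindle, hold until each chromosome is attached, and then split, and 35 genes that carry out these steps were followed in mouse embryonic stem cell libraries labelled INO80 knockout or wild type. The genes were taken as a list of names: cyclin-dependent kinase 1 and its cyclins, the Aurora and Polo kinases, the chromosomal passenger complex, the spindle checkpoint, the kinetochore, spindle motors, cytokinesis proteins and 2 chromosome proteins. They are 35 of the 24505 genes in each file. All 35 had at least 1 RPKM (reads per kilobase of transcript, scaled to the mapped reads of the library) in at least 2 libraries and were among the 13428 genes tested. The cells all came from 1 line, INO80 CKO, in which Ino80 can be deleted by induction. Ino80 encodes the ATPase of the INO80 complex, which moves and edits nucleosomes. There were 8 libraries in 4 groups of 2. In the naive state the cells were grown in 2iL, that is, with the MEK inhibitor PD0325901, the GSK3 inhibitor CHIR99021 and LIF, and 2 libraries were labelled INO80 knockout and 2 wild type. The primed state, grown in FAX with FGF-2, Activin A and the tankyrase inhibitor XAV-939, had 2 libraries of each label as well. For deletion, 4-OHT was given at 100 nM for 2 days and the cells were grown for 2 days more. The sources used here do not say whether wild-type cells also received 4-OHT, nor whether the 2 libraries of a group were separate cultures. The p-values therefore measure how far these libraries lie apart, and that spread may be technical.

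Most genes of this kind are transcribed late in the cell cycle, peak as cells pass from G2 into mitosis, and are shut off in G1 and in cells that leave the cycle. In mammals their promoters commonly carry a cell cycle genes homology region (CHR), which is bound by the DREAM complex when the genes are repressed and by B-MYB with MuvB, and then FOXM1, when they are active, together with CCAAT boxes bound by NF-Y. Mouse embryonic stem cells divide fast, and many cells of an unsynchronised culture make these transcripts. How long the cells of either medium spent in G1 is not known from these data. In RNA from whole cultures, fewer cells in G2 and mitosis and less RNA per cell cannot be told apart.

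Promoter windows from RefSeq (build GRCm38.p6, 250 bases before to 50 bases after the annotated start) were found for 28 of the 35 genes. Spc24, Cdc25c, Ccna2, Aurkb, Incenp, Kif20a and Tpx2 had none. The CHR letters TTTGAA or TTCGAA, on either strand, were in the window of 23 of these genes (82.1%), against 21.7% of 27025 genes with a window. The letters CCAAT, on either strand, were in 22 (78.6%), against 41.1% of all genes. Both were in 20 (71.4%), against 8.61%. Within 50 bases of the start, CHR letters were in 21 (75%) of the genes and in 6.12% of all. The motifs can overlap each other, and a match is a run of letters, not a shown binding site. The following stretches run from 100 bases before to 50 bases from the annotated start, so that their last 50 bases lie in the first exon. They are shown for 3 genes that were lower in sign in primed knockout libraries under every scaling used below (Ccnb2, Cdca8 and Prc1), for 3 genes that were lower in naive ones (Plk1, Aurka and Ccnb1), and for Nuf2, which did not pass the test in either state as deposited. Capitals mark the CHR letters and CCAAT or its complement ATTGG.
Ccnb2: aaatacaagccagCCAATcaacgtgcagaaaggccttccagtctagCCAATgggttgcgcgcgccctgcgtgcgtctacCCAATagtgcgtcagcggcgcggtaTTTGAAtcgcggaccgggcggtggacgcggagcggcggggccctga
Cdca8: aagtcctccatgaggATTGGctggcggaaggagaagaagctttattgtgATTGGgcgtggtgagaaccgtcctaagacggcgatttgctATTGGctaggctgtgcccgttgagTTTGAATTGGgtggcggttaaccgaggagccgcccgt
Prc1: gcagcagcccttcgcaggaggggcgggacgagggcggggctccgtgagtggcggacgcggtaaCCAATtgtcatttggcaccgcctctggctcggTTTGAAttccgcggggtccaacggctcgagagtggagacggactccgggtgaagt
Plk1: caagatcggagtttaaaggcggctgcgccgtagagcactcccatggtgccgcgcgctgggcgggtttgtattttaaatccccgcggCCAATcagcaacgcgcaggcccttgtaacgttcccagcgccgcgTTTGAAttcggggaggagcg
Aurka: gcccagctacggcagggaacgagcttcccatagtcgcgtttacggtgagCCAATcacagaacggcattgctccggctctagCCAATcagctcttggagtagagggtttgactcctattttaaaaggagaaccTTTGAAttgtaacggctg
Ccnb1: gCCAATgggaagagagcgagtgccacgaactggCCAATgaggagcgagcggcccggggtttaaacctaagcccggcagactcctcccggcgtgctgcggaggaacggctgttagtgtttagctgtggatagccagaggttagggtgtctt
Nuf2: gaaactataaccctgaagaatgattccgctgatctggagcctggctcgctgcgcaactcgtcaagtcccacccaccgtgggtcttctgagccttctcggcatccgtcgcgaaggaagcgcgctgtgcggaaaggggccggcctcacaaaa
The stretch of Ccnb2 lies at chr9:70421505-70421654 (minus strand), that of Cdca8 at chr4:124936868-124937017 (minus strand) and that of Prc1 at chr7:80294351-80294500 (plus strand). Plk1 was read at chr7:122159335-122159484 (plus strand), Aurka at chr2:172370521-172370670 (minus strand), Ccnb1 at chr13:100786437-100786586 (minus strand) and Nuf2 at chr1:169531415-169531564 (minus strand). The Ccnb2, Cdca8, Prc1, Plk1 and Aurka stretches hold CHR letters close to the start with CCAAT boxes upstream of them. The Ccnb1 stretch holds 2 CCAAT boxes and no CHR letters, and that of Nuf2 holds neither motif. Of the other genes with a window that did not pass in either state as deposited, Bub3, Ttk, Cdc20 and Kif4 hold both motifs in it. Cenpe holds CCAAT letters only and Ndc80 CHR letters only.

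**Figure D1:**
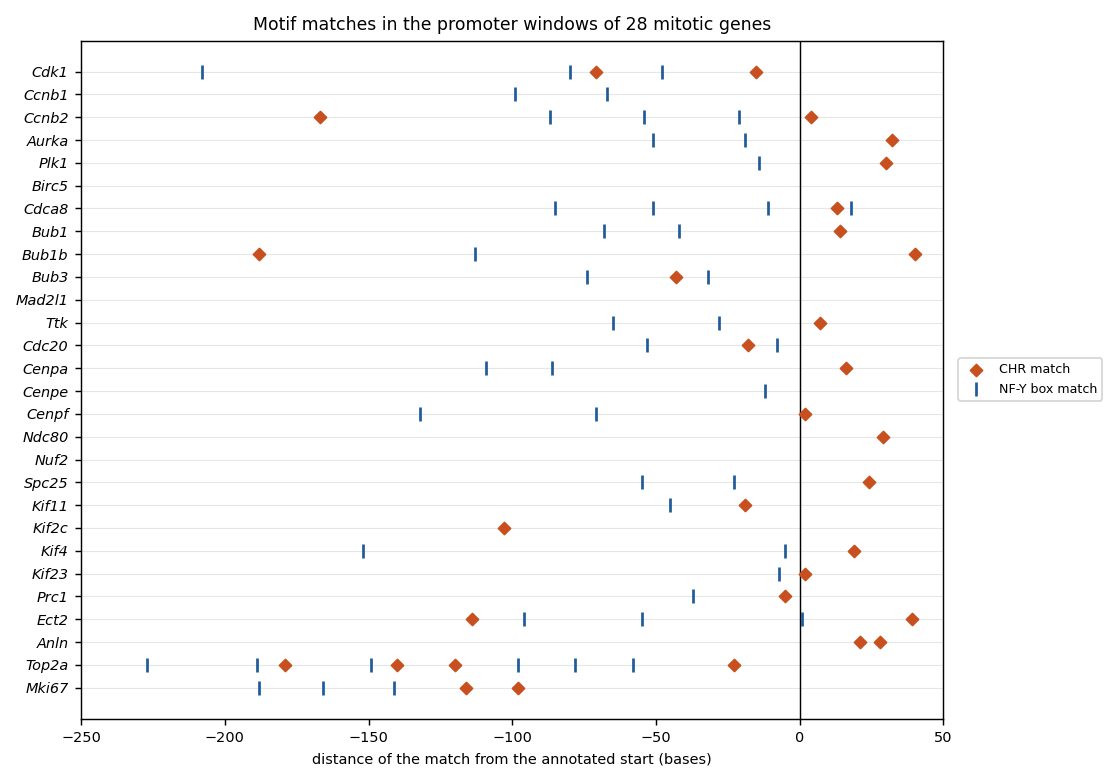
Position of CHR letters (diamonds) and of CCAAT letters on either strand, drawn as NF-Y box (bars), in the promoter windows of the 28 genes with a RefSeq window; the horizontal axis is the distance from the annotated start in bases, and for a gene with more than 1 start 1 window is drawn. Most CHR matches lie near the start, and Birc5, Mad2l1 and Nuf2 have neither motif in the window drawn.

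Ino80 itself was 15.9 and 15.1 RPKM in the naive libraries labelled knockout and 17 and 14.5 in the wild-type ones, a log2 difference of -0.020 (adjusted p = 0.975), so the deposited transcript level does not separate the naive labels. Under loess within the state that difference was -0.10 (adjusted p = 0.0404). In the primed state it was 9.12 and 8.74 against 15.9 and 20.3, a log2 difference of -0.93 (adjusted p = 2.04e-06) beside a median of -0.53 over all tested genes. After quantile normalization the primed difference was -0.26 (adjusted p = 0.000231). The sources used here do not name the deleted exons, and reads outside them would not report the deletion. The naive groups are therefore called the libraries labelled knockout and wild type. Markers of the naive state (8 genes) summed to 805 to 913 RPKM in naive libraries and to 3.42 to 11.3 in primed ones, and primed markers (7 genes) to 37.6 to 59.2 and 284 to 335. Fibroblast markers (7 genes) summed to at most 2.14 RPKM in naive libraries, to 15.9 and 16.8 in primed knockout libraries and to 38.1 and 52.2 in primed wild-type ones, with 5 of the 7 at 1 RPKM or more in each primed library. Neural markers (5 genes, 3 of them at 1 RPKM or more in each naive library) summed to 86.3 and 83.5 RPKM in naive libraries labelled knockout, to 50.7 and 44.3 in naive wild-type ones and to 136 to 161 in primed ones. In primed libraries Nes was 137 and 131 RPKM in knockouts against 69.4 and 77.9, while Tubb3 (21.4 and 19.98 against 50.6 and 60.8), Sox1 (1.71 and 1.65 against 8.34 and 10.9) and Pax6 (1.00 and 0.921 against 7.53 and 10.6) were the lower in knockouts. Mesoderm markers (5 genes) summed to 7.63 and 7.64 RPKM in primed knockouts against 1.77 and 2.49, and the primed-state marker T was 37.4 and 33.7 against 1.94 and 2.89. Endoderm markers (6 genes) summed to at most 5.26 RPKM in any library, mesoderm ones to 5.80 to 9.74 in naive libraries, and pluripotency markers (8 genes) to 1184 to 1792. The part of these cell types in the results was not tested. The values were taken to have been scaled further by the authors, apart in each state, which no source used here states: all 4017 naive and all 4501 primed rows tied in 1 library were tied in the other 3 of its state, and 3208 of them were tied in all 8. Over all tested genes the median log2 difference, knockout minus wild type, was 0.049 in the naive state and -0.53 in the primed state. After quantile normalization of the 8 libraries these medians were 0.019 and 0.016. Under median centring, which sets the median of each library and not that of the differences, they were -0.0075 and 0.16. A primed difference with a positive sign under median centring can therefore lie below the middle of all genes. Because the choice of scaling sets the zero of the primed comparison, results there are also given relative to the median of all genes and under 3 further scalings (median centring, quantile normalization and loess within each state). These bring the libraries to a like level, so a fall shared by most genes is taken out by them, whatever its origin. A sign that turns under them is relative to the other genes. The origin of the primed shift was not tested.

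The mitotic genes were among the strongly expressed genes of every library, with a median at the 93.4th to 94.9th percentile of all rows, and their RPKM made up 0.489% to 0.561% of the library sum. In wild-type libraries, DNA topoisomerase Top2a, which untangles sister chromatids, stood highest in both states, at 148 and 169 RPKM in naive and 174 and 182 in primed cells. Cdc20, the activator of the anaphase-promoting complex, and Cdca8, the Borealin subunit of the passenger complex, followed at 132 and 157 and 109 and 122 RPKM in naive cells. Cdc25c, a phosphatase that activates Cdk1, was lowest of the 35 in naive wild-type libraries at 15.6 and 13.3, and the kinesin Kif4 was lowest in primed ones at 23.2 and 28.01. Levels in the 2 states were not tested against each other, since the states were taken to be scaled apart. By rank within a library, Kif20a stood at the 95.8th and 95.7th percentile in naive wild-type cells and at the 90.6th and 90.3rd in primed ones, while the proliferation marker Mki67 stood at the 90.2nd and 90.5th and then at the 94.7th in both.

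**Figure D2:**
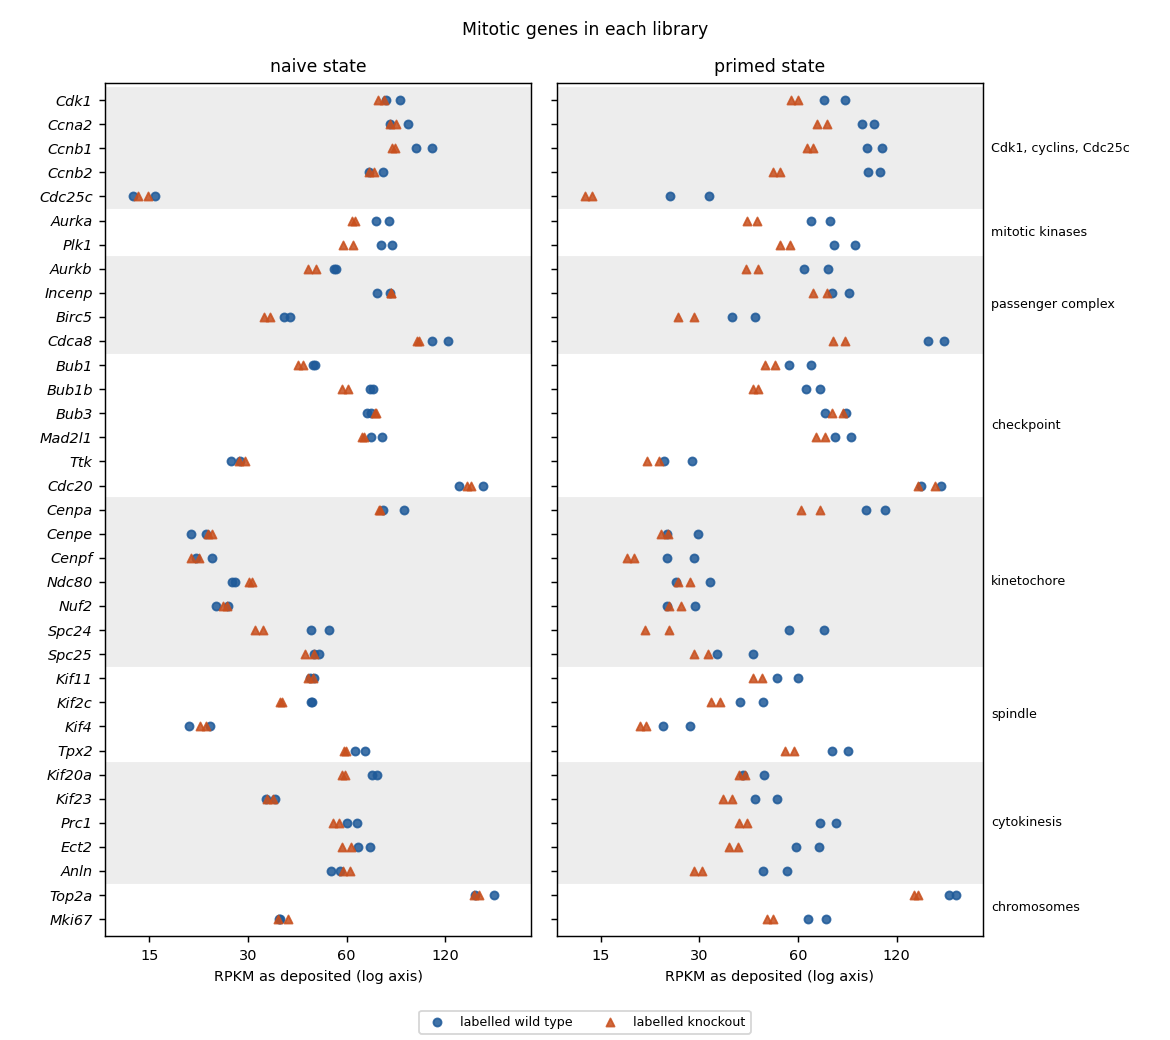
RPKM as deposited (log axis) of each of the 35 genes in each library, naive on the left and primed on the right, grouped by role; circles are libraries labelled wild type and triangles those labelled knockout. In the naive state the symbols of most genes lie close together, with Spc24, Plk1 and Kif20a among those lower in both libraries labelled knockout. In the primed state 29 of 35 genes have both knockout libraries below both wild-type ones, against 76.4% of all tested genes. This order was counted on the values as deposited only.

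In naive cells a small set of mitotic genes was lower in the libraries labelled knockout: the kinetochore subunit Spc24, the kinases Plk1 and Aurka, cyclin B1 (Ccnb1) and the cytokinesis kinesin Kif20a. With limma on log2(RPKM + 1), these 5 of 35 genes (14.3%) were lower at an adjusted p under 0.05 and 0 were higher, against 5.85% and 6.08% of all tested genes. At an unadjusted p under 0.05, 9 were lower and 0 higher, beside 3110 of the 13428 tested genes in either direction. The median difference of the 35 was -0.093, beside 0.049 for all tested genes. This gap rested on the wild-type libraries. Without the second naive wild-type library the medians were -0.071 and -0.073, and without the first they were -0.15 and 0.18. Both libraries labelled knockout lay below both wild-type ones for 17 of the 35 genes, against 21% of all tested genes, above them for 5, against 31.2%, and the groups overlapped for 13. The shares over all genes cover genes of every level, and the naive wild-type libraries differed by level. The first minus the second had a median log2 difference of 0.50 at a mean log2(RPKM + 1) under 2. It was 0.40 from 2 to 4, 0.11 from 4 to 6, -0.14 above 6, and -0.051 for the 35. In sign, 25 genes were lower under all 4 scalings and 6 were higher under all 4 (Incenp, Bub3, Ttk, Cenpe, Ndc80 and Anln). After quantile normalization, with a smaller spread between replicates, 18 genes were lower and 2 higher, against 27.2% and 32% of all genes, and the 5 genes above were among the 18. Without the intensity trend in the variance limma called 0 of the 35, with 2 lower at an unadjusted p under 0.05.

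Spc24 showed the largest of these differences. Its protein forms, with Spc25, the end of the Ndc80 complex that docks onto the inner kinetochore, and the gene lies on chromosome 9 at 21755434 to 21760446 in GRCm38. It stood at 33.4 and 31.4 RPKM under the knockout label and at 46.6 and 53.01 under the wild-type label. The groups did not overlap, and the log2 difference was -0.60 ± 0.12 (SE, adjusted p = 2.36e-05). It was the one member called in each of the 8 fits that left out a library, with a highest adjusted p of 0.0365. Plk1, the Polo-like kinase that acts at centrosomes, kinetochores and the midbody, was 62.6 and 58.7 RPKM against 76.2 and 82.4. Its log2 difference was -0.38 ± 0.10 (adjusted p = 0.00285), and with Spc24 it was the only one of the 35 called under all 4 scalings.

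Cyclin B1, the main partner of Cdk1 at mitotic entry, was 82.5 and 84.5 RPKM in naive libraries labelled knockout and 97.7 and 109 in wild-type ones, a difference of -0.30 ± 0.10 (adjusted p = 0.0158). Cdk1 was 74.8 and 78 against 79.2 and 87.2, and although both values labelled knockout were the lower ones, the difference of -0.12 did not pass the test (adjusted p = 0.532). Cyclin A2 (Ccna2), which acts before and during mitotic entry, was 81.7 and 85.01 against 81.4 and 92.4. Cyclin B2 (Ccnb2) was 70.4 and 72.8 against 70.5 and 77.8, and Cdc25c 14.9 and 13.8 against 15.6 and 13.3. For these last 3 genes the groups overlapped, so that among the cyclins named here Ccnb1 alone passed the test as deposited.

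Aurora A kinase (Aurka), which matures centrosomes and builds the spindle poles, was 62.1 and 63.8 RPKM against 73.6 and 81.2, a difference of -0.29 ± 0.10 (adjusted p = 0.0458). Tpx2, the spindle protein that activates Aurora A, was 58.8 and 59.6 against 63.8 and 68.5 and did not pass the test (difference -0.16, adjusted p = 0.384). Kif20a, a kinesin of the central spindle, was 58.1 and 59.4 against 71.6 and 74.2, a difference of -0.31 ± 0.11 (adjusted p = 0.045). Ccnb1, Aurka, Plk1 and Kif20a lost the call when either naive library labelled knockout or the second wild-type one was left out, and Aurka and Kif20a lost it in 3 other such fits. Aurora B (Aurkb), the kinase of the passenger complex, was 45.9 and 48.3 against 54.9 and 55.6, without overlap but not past the test (difference -0.23, adjusted p = 0.183). Its complex partner Cdca8 was 98.8 and 99.6 against 109 and 122 and did not pass either (difference -0.22, adjusted p = 0.0982).

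The remaining naive members did not pass the test as deposited. Top2a stood at 147 and 152 RPKM under the knockout label and at 148 and 169 under the wild-type label. Mki67, which coats mitotic chromosomes, was 37.1 and 39.7 against 37.6 and 37.2. The 2 groups overlapped for both genes. Prc1, which bundles the antiparallel microtubules of the central spindle, was 54.7 and 56.97 against 60.1 and 64.7. Ect2, the exchange factor that activates RhoA for cleavage, was 58.2 and 61.95 against 64.9 and 70.8. Anillin (Anln), a scaffold of the contractile ring, was 58.6 and 61.5 against 53.9 and 57.2, and unlike Prc1 and Ect2 it was the higher in both libraries labelled knockout. Cenpa, the histone H3 variant that marks centromeres, was 76.02 and 75.4 against 77.3 and 89.9, with both values labelled knockout the lower. The checkpoint gene Bub3 was 73.5 and 74.02 against 69.3 and 71.4, Cdc20 144 and 139.8 against 132 and 157 and the Ndc80 complex subunit Nuf2 25.1 and 25.8 against 26 and 24.02. The 14 genes not named one by one (Incenp, Birc5, Bub1, Bub1b, Mad2l1, Ttk, Cenpe, Cenpf, Ndc80, Spc25, Kif11, Kif2c, Kif4 and Kif23) had naive differences from -0.30 for Kif2c to 0.16 for Ndc80.

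In primed cells, 7 genes were lower in sign in the knockout libraries whichever of the 4 scalings was used: Spc24, Cdc25c, Cdca8, Ccnb2 and the cytokinesis genes Prc1, Anln and Ect2. Spc24 was at 34.8% of its wild-type mean as deposited, and the other 6 at 48.7% to 59.3%. Under median centring 20% of the 35 genes were below 0, against 37.8% of all tested genes. There Cdca8 (-0.28), Ccnb2 (-0.28), Prc1 (-0.15), Anln (-0.069) and Ect2 (-0.040) did not pass the test. As deposited, 26 of 35 genes (74.3%) were lower and 0 were higher, against 59.3% and 4.16% of all tested genes, and the median difference was -0.46 beside -0.53 for all genes. At an unadjusted p under 0.05, 28 were lower and 0 higher, beside 8986 of the 13428 in either direction. The share of 59.3% covers genes of every level. With a filter of 5 RPKM 64.7% of all tested genes were lower, beside 27 of the 35. After quantile normalization 17 were lower and 14 higher, against 35.1% and 39% of all genes, and under median centring 2 were lower and 15 higher, against 23.6% and 41.6%. Cdc25c and Spc24 were called lower under all 4 scalings. Bub3 was higher in sign under all 4, and 27 genes changed sign with the scaling. These signs are not taken relative to the median of all genes, which under median centring was 0.16. As deposited, both knockout libraries lay below both wild-type ones for 29 genes, against 76.4% of all tested genes, above them for 0, against 6.77%, and the groups overlapped for 6. Relative to the median of all genes, the primed differences ran from -0.94 for Spc24 to 0.55 for Bub3.

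**Figure D3:**
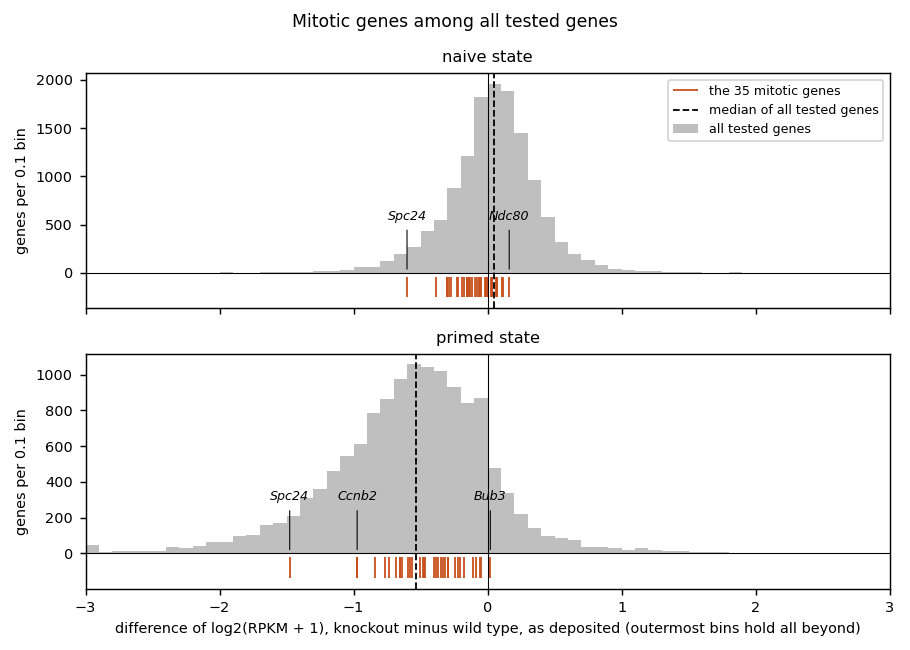
Histogram of the difference of log2(RPKM + 1), knockout minus wild type, as deposited, over all 13428 tested genes (grey, genes per bin of 0.1), with the 35 mitotic genes as ticks under it, for the naive state above and the primed state below; the dashed line is the median of all genes. The primed ticks spread around the dashed line at -0.53, from Spc24 at -1.48 to Bub3 at 0.020, and the direction of most primed ticks depends on the scaling.

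Spc24 was 24.2 and 20.4 RPKM in primed knockout libraries and 56.1 and 72.1 in wild-type ones. The difference was -1.48 ± 0.12 (SE, adjusted p = 2.84e-32) as deposited, -0.94 relative to the median of all genes and -1.03 ± 0.074 (adjusted p = 4.77e-06) after quantile normalization. The highest knockout value was below the lowest wild-type value in this state as in the naive one. Other kinetochore members stood elsewhere in the distribution. Nuf2 was 26.3 and 24.3 against 23.8 and 29.1, overlapping, with a difference of -0.060 as deposited (adjusted p = 0.732) and 0.49 ± 0.029 (adjusted p = 1.72e-06) after quantile normalization. Cenpa was 70.1 and 61.2 against 97.01 and 110.2, a difference of -0.65 ± 0.10 (adjusted p = 1.92e-10) as deposited and of -0.34 after quantile normalization. Under median centring it was 0.043, beside 0.16 for all genes. Of the 7 kinetochore genes 4 fell as deposited (Spc24, Cenpa, Cenpf and Spc25), beside 59.3% of all tested genes, and after quantile normalization 2 were lower (Spc24 and Cenpa) and 4 higher.

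Among the cyclins, Ccnb2 stood lowest. It was 52.8 and 50.4 RPKM in primed knockout libraries against 97.95 and 107, a difference of -0.97 ± 0.10 (adjusted p = 6.62e-21) as deposited and of -0.44 relative to all genes. Ccnb1 was 66.6 and 63.9 against 97.6 and 108, with a difference of -0.65 ± 0.10 (adjusted p = 9.13e-11). Ccna2 was 73.5 and 68.7 against 94.3 and 103, with a difference of -0.46 ± 0.10 (adjusted p = 6.01e-06). Both stayed lower after quantile normalization (-0.34 and -0.15). Under median centring they were 0.044 and 0.23, beside a median of 0.16 over all genes. Cdk1 was 59.9 and 56.9 against 71.9 and 83.5 and fell as deposited by a difference of -0.40 ± 0.10 (adjusted p = 0.000165), while after quantile normalization its difference of -0.032 did not pass (adjusted p = 0.317) and under median centring it was 0.29. Cdc25c was 14.1 and 13.4 against 24.4 and 32.2, a difference of -0.98 ± 0.17 (adjusted p = 6.06e-08) as deposited and of -0.40 ± 0.042 (adjusted p = 5.07e-05) after quantile normalization.

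The mitotic kinases were lower as deposited and lay close to the median of all genes. Aurka was 44.9 and 41.8 RPKM in the knockout libraries and 65.6 and 75.2 in the wild-type ones, a difference of -0.68 ± 0.10 (adjusted p = 5e-10) and of -0.15 relative to all genes. Plk1 was 56.6 and 53.02 against 77.4 and 89.3, a difference of -0.59 ± 0.10 (adjusted p = 3.41e-08) and of -0.060 relative to all genes. Both were lower after quantile normalization (-0.28 and -0.23). Under median centring they were 0.010 and 0.10, below the median of 0.16 over all genes there. Tpx2 was 58.4 and 54.7 against 76.1 and 84.99, a difference of -0.50 ± 0.10 (adjusted p = 4.9e-06) that was 0.19 under median centring. Genes called lower as deposited in both states were Ccnb1, Aurka, Plk1 and Spc24.

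In the chromosomal passenger complex, which corrects faulty attachments and then guides cleavage, Cdca8 changed most. It was 83.2 and 76.95 RPKM in primed knockout libraries and 149.9 and 167 in wild-type ones, a difference of -0.98 ± 0.090 (adjusted p = 1.92e-25) as deposited and of -0.71 ± 0.022 (adjusted p = 7.03e-08) after quantile normalization. The kinase subunit Aurkb was 45.3 and 41.7 against 62.7 and 74.1, a difference of -0.64 ± 0.11 (adjusted p = 3.77e-08) as deposited. Under median centring it was 0.056, beside 0.16 for all genes. Birc5 (Survivin) fell as deposited (-0.57, and 0.13 under median centring), and the scaffold Incenp did not pass the test as deposited (difference -0.20, adjusted p = 0.06) and was positive at 0.15 after quantile normalization.

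The spindle checkpoint genes other than Bub1b stood above the median of all genes as deposited. Bub3, which brings checkpoint kinases to kinetochores, was 82.5 and 75.96 RPKM in knockout libraries and 72.3 and 84.2 in wild-type ones, overlapping, with a difference of 0.020 as deposited (adjusted p = 0.874) and of 0.36 ± 0.026 (adjusted p = 5.01e-06) after quantile normalization. Cdc20, the target of the checkpoint, was 157 and 139 against 142 and 164, overlapping, with a difference of -0.047 as deposited (adjusted p = 0.647) and of 0.15 after quantile normalization. Of the 6 checkpoint genes 3 fell as deposited (Bub1, Bub1b and Mad2l1), beside 59.3% of all tested genes. After quantile normalization 5 were higher and 1, the kinase-like BubR1 gene Bub1b, was lower at -0.18. The median of the 6 was -0.23 as deposited, beside -0.53 for all genes.

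The cytokinesis genes split. Prc1 was 41.98 and 39.7 RPKM in primed knockout libraries against 70.2 and 78.1, a difference of -0.84 ± 0.11 (adjusted p = 5.02e-14). Ect2 was 39.4 and 36.8 against 59.1 and 69.4, a difference of -0.73 ± 0.11 (adjusted p = 8.47e-11). Anln was 30.5 and 28.8 against 46.9 and 55.4, a difference of -0.76 ± 0.11 (adjusted p = 1.61e-10). These 3 were also lower after quantile normalization (-0.43, -0.32 and -0.30). Under median centring they were lower in sign (-0.15, -0.040 and -0.069) and did not pass the test. Kif20a was 41.3 and 39.7 against 40.6 and 47.2, overlapping, with a difference of -0.11 as deposited (adjusted p = 0.378) and of 0.34 ± 0.030 (adjusted p = 1.85e-05) after quantile normalization. Kif20a, Prc1, Plk1, Ccna2, Cdc20 and Kif4 share exon bases with a gene on the other strand in GENCODE vM21, 1271 of them between Kif20a and Cdc23, and since the strand counted is not given these values may hold reads of the partner. Ccnb1, Ccnb2 and Kif4 have named pseudogenes that can share reads with them.

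Top2a was 139.7 and 136 RPKM in primed knockout libraries and 174 and 182 in wild-type ones, a difference of -0.37 ± 0.084 (adjusted p = 4.29e-05) as deposited that was -0.15 after quantile normalization and 0.33 under median centring. Mki67 was 50.3 and 48.2 against 64.5 and 73.01, a difference of -0.47 ± 0.11 (adjusted p = 0.000109) as deposited, which did not pass after quantile normalization (-0.076, adjusted p = 0.076) and was 0.22 under median centring. The 14 genes without values of their own had primed differences from -0.58 for Bub1b to -0.089 for Ndc80 as deposited. Without the second primed knockout library the median difference of the 35 was -0.42, beside -0.50 over all tested genes.

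**Figure D4:**
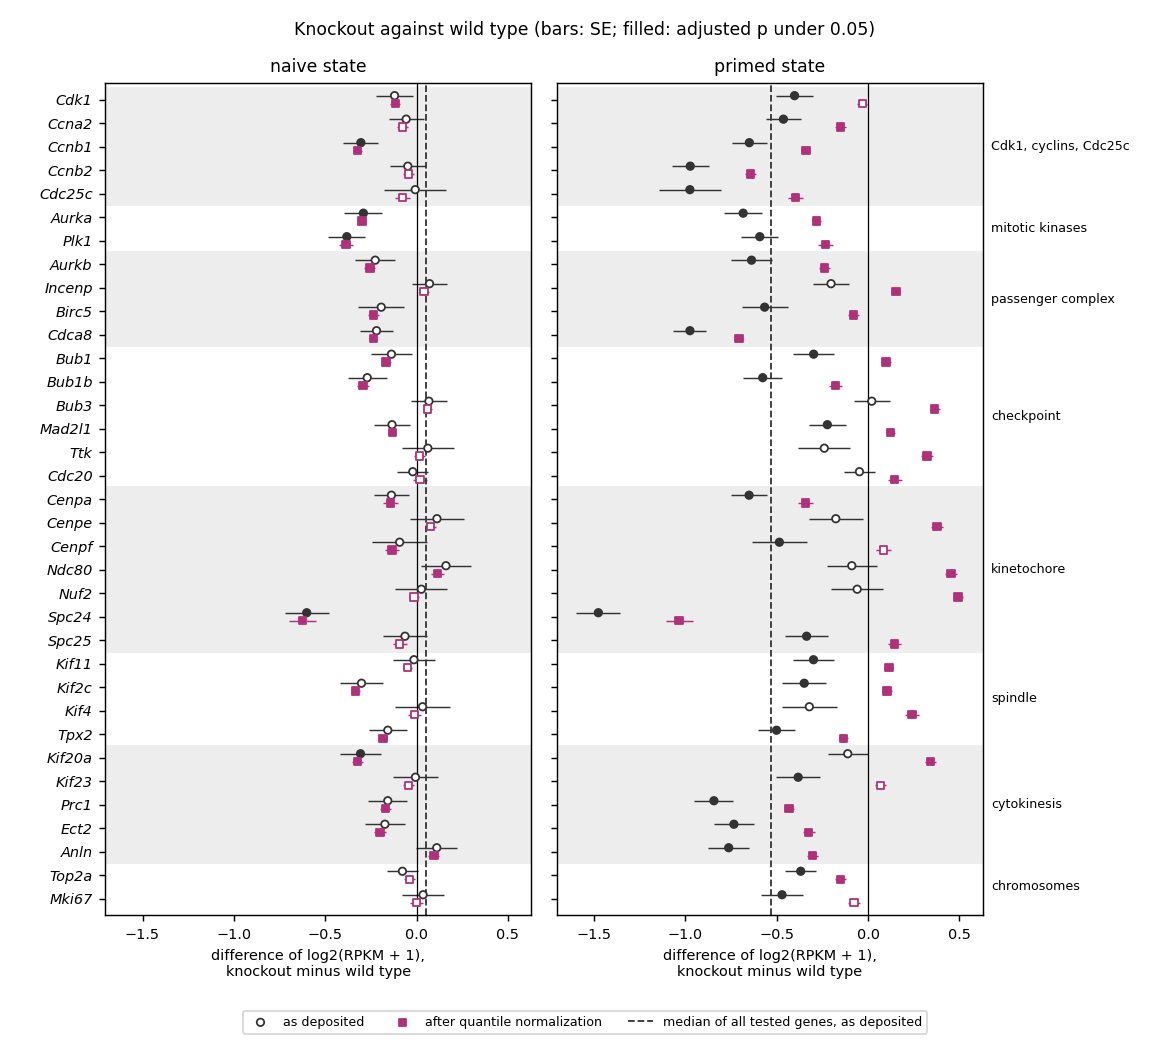
Difference of log2(RPKM + 1), knockout minus wild type, for each of the 35 genes in the naive (left) and primed (right) state, as deposited (circles) and after quantile normalization (squares); bars are the SE, filled symbols passed an adjusted p under 0.05 and the dashed line is the median of all tested genes as deposited. Circles and squares nearly coincide in the naive state, while in the primed state quantile normalization moves the squares to the right, and genes such as Nuf2, Ndc80 and Kif20a come out higher.

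Shares within a complex do not depend on a scaling that multiplies all genes of a library by 1 factor. They can change under quantile normalization and loess, which shift genes by their level, and those below are of deposited RPKM. The sets below were chosen after the values were seen, and the shares are described without a test. The Ndc80 complex, the main microtubule attachment of the outer kinetochore, holds Ndc80, Nuf2, Spc24 and Spc25 in equal numbers. Spc24 made up 25.03% and 23.1% of their summed RPKM in the naive libraries labelled knockout and 31.5% and 34.6% in the wild-type ones. In primed libraries its share was 21.9% and 20.6% in knockouts and 40.3% and 40.7% in wild type. Shares within a set are not independent, and the fall of 1 raises the others. Within the passenger complex, Cdca8 made up 36.02% and 36.4% of the summed RPKM of Aurkb, Incenp, Birc5 and Cdca8 in primed knockout libraries and 45.9% and 44.98% in primed wild-type ones. Its naive share was 37.9% and 37.6% against 39.2% and 40.99%. The share of Incenp stood at 31.9% and 31.6% in primed knockouts against 23.3% and 23.1% and at 31.5% and 30.99% against 26.7% and 27.4% in the naive state. Among Ccna2, Ccnb1 and Ccnb2, Ccnb2 made up 27.4% and 27.6% in primed knockout libraries and 33.8% and 33.6% in wild-type ones. In the naive state it was Ccnb1 whose share was lower, at 35.2% and 34.9% against 39.2% and 39.1%.

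**Figure D5:**
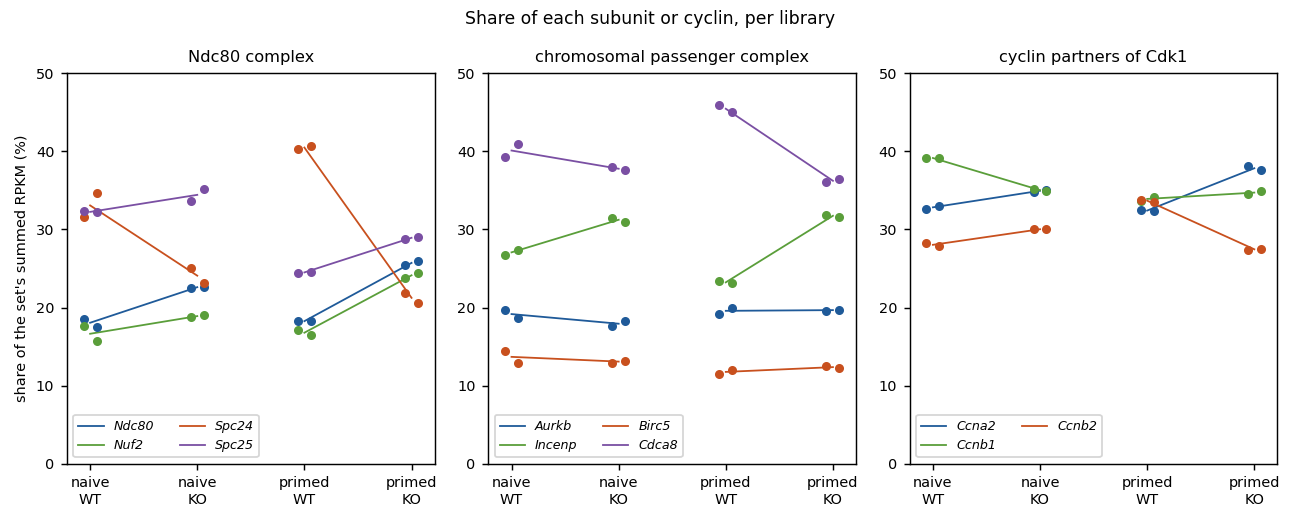
Share of each subunit in the summed RPKM of its set, in percent, for the Ndc80 complex, the chromosomal passenger complex and the cyclins that pair with Cdk1, with 1 point per library in each of the 4 groups and lines between group means. The share of Spc24 is lower in the libraries labelled knockout of both states, and in the primed state those of Cdca8 and Ccnb2 are lower as well.

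The difference between libraries labelled knockout and wild type was not the same in both states for 15 of the 35 genes (42.9%) as deposited, all with a more negative difference in primed cells (primed minus naive), against 47.4% of all tested genes, and 0 had a more positive one, against 2.16% (20 and 0 at an unadjusted p under 0.05, beside 7672 of the 13428 in either direction). The median of the 35 was -0.34, beside -0.59 for all genes. After quantile normalization 8 were lower and 17 higher, against 30.9% and 33.6% of all genes, and under median centring 0 were lower and 12 higher, against 17.1% and 29.2%. Only 6 genes kept their sign under all 4 scalings: Ccnb2, Cdc25c, Cdca8, Spc24 and Anln, lower, and Kif20a, higher. Of these, 0 were called under all 4. Under median centring Ccnb2 (-0.17), Cdc25c (-0.22), Cdca8 (-0.0051), Spc24 (-0.12) and Anln (-0.12) did not pass the test. There 14.3% of the 35 were below 0, against 37% of all tested genes. Ccnb2 differed by -0.93 ± 0.14 (adjusted p = 1.94e-09) as deposited and by -0.60 ± 0.042 (adjusted p = 1.16e-05) after quantile normalization. Cdc25c differed by -0.97 ± 0.24 (adjusted p = 0.000348) and -0.32 ± 0.059 (adjusted p = 0.00192). Anln, which was the higher in naive libraries labelled knockout, differed by -0.87 ± 0.16 (adjusted p = 8.27e-07) and -0.40 ± 0.042 (adjusted p = 9.19e-05). Spc24, lower in both states, differed by -0.88 ± 0.17 (adjusted p = 4.19e-06) and -0.41 ± 0.10 (adjusted p = 0.00917). Kif20a differed by 0.20 ± 0.16 (adjusted p = 0.277) as deposited, which did not pass the test, and by 0.66 ± 0.043 (adjusted p = 8.02e-06) after quantile normalization. The median difference of effects of the 35 changed when 1 library was left out. It was -0.44 without the first primed wild-type library, beside -0.75 over all tested genes. Without the second primed wild-type library it was -0.26, beside -0.43.

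Other genes of the same steps, 131 in 6 lists, were counted in the same fits. In naive cells 10 were lower and 4 higher (median -0.021), beside 5.85% and 6.08% of all tested genes. In primed cells 91 were lower and 4 higher as deposited (median -0.55), beside 59.3% and 4.16% of all. Under quantile normalization the primed counts were 58 lower and 50 higher, beside 35.1% and 39%, and under median centring 23 lower and 49 higher, beside 23.6% and 41.6%. In the inner kinetochore list (23 genes) 2 fell in naive cells, Oip5 (-0.69), which helps load Cenpa, and Pmf1 (-0.48) of the Mis12 complex. In primed cells 17 of the 23 fell as deposited, led by Oip5 (-1.99) and Nsl1 (-1.25), and 11 were lower and 9 higher after quantile normalization. Of 13 further checkpoint and attachment genes, Zwilch fell in naive cells (-0.39) and 7 fell in primed cells (6 lower and 6 higher after quantile normalization), led by Ska1 (-1.43) and Zwilch (-1.36). Among 16 condensin, cohesin and separase genes, Ncapd2 (-0.37) and Rad21 (-0.27) fell in naive cells and 11 fell in primed cells (5 lower and 6 higher after quantile normalization), led by Ncaph2 (-1.16) and Pttg1 (-0.92), the securin. Of 16 genes of the anaphase-promoting complex and its cofactors, Anapc5 fell (-0.24) and Anapc13 rose (0.40) in naive cells, and 11 fell in primed cells (3 lower and 8 higher after quantile normalization), led by Anapc1 (-0.74) and Ube2s (-0.70). Of 35 spindle and centrosome genes 4 fell in naive cells, led by the augmin subunits Haus8 (-0.78) and Haus1 (-0.74), and Ckap2 rose (0.54). In primed cells 27 of the 35 fell as deposited, led by Haus1 (-1.85) and Nusap1 (-1.19), and Ckap2 (0.78) and Kif18b (0.53) rose. After quantile normalization 21 were lower and 9 higher, and under median centring 7 and 9.

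The last list held 28 genes of mitotic entry and its transcription factors. In naive cells Cdkn1a and Gtse1 (0.51) rose. In primed cells 18 fell as deposited (12 lower and 12 higher after quantile normalization), led by Lin9 (-1.58), a MuvB subunit, and Pkmyt1 (-1.51), which holds Cdk1 inactive, and Cdkn1a and Gtse1 (1.32) rose. Cdkn1a, the p21 inhibitor of cyclin-dependent kinases, was 209 and 196 RPKM against 147 and 167 in the naive state, a difference of 0.37 (adjusted p = 0.000443). In the primed state it was 198 and 181 against 52.1 and 58.6, a difference of 1.76 (adjusted p = 9.97e-89). Foxm1, an activator of these genes, was 42.5 and 42.6 against 42.8 and 42.6 in the naive state and 47.1 and 44.6 against 63.3 and 72.6 in the primed state. Its primed difference of -0.55 (adjusted p = 3.5e-06) lay at the median of all genes and was 0.14 under median centring. Mybl2, which encodes B-MYB, was 116 and 112 against 104 and 112 in naive libraries and 11.1 and 10.2 against 21.4 and 26.1 in primed ones. Its primed difference was -1.08 (adjusted p = 9.24e-19) as deposited, -0.46 after quantile normalization and -0.39 under median centring.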

How the data were processed

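Each of the 8 files holds 24505 genes with 1 value each, the RPKM that the authors deposited. Reads were processed against mm9 with STAR 2.5.2b, cutadapt 1.9, featureCounts 1.5.1 and affy in an order and with settings and a strand that are not stated, per the submitters' processing notes. Lysates received ERCC spike-ins and ribosomal RNA was removed before library preparation, per the labels' protocols, but the files hold 0 spike-in rows. A further scaling by the authors, apart in each state, is inferred from the deposited RPKM values (no value is 0, and ties are shared within a state), and the sources used here neither state it nor give its method. Whether it used the spike-ins is therefore not known. Sequencing depth is unknown from such values, so no counting intervals are given.

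Values were taken as log2(RPKM + 1), so that a difference understates the change of weakly expressed genes, and the 13428 genes reaching 1 RPKM in 2 or more libraries were tested. Limma 3.58.1 in R 4.3.3 was fitted with 4 group means over the 8 libraries and an intensity trend in the moderated variance. Adjusted p-values are Benjamini-Hochberg values over all tested genes of a comparison, with a threshold of 0.05. On the deposited values limma's prior degrees of freedom were infinite, so each gene takes its variance from the trend, which makes the adjusted p of large differences very small. The fit was also run on simulated data with the same noise for all genes and no shift of whole libraries. That run cannot show how the calls behave under the shifts seen here. Motifs were searched with Python 3.11.15 and figures drawn with matplotlib 3.10.9.

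The members, the 6 lists of other genes, the 7 lists of cell type markers and the tests were chosen with earlier results of these data known. By the rule for naming, every library's values are given for Cdk1, Ccnb1, Aurka, Aurkb, Plk1, Top2a and Mki67, for members called in the naive comparison or in the difference of effects, and for the 3 largest and 3 smallest primed falls; other lists give at most 2 called genes per direction and comparison, and Ino80, Cdkn1a, Foxm1 and Mybl2 are always given. The alternatives were a pseudocount of 0.1, a filter of 5 RPKM and no filter, quantile normalization, median centring, loess within each state, each state alone, library weights, no trend, a block for the replicate number, and leaving out each library, where the spread of a lone library is taken from the other groups.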

Additional observations from a re-analysis of the deposited data

Results flagged for a closer look

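The difference between libraries labelled knockout and wild type was not the same in both states for 15 genes in limma's test of the difference itself (primed minus naive, adjusted p under 0.05 as deposited), and this difference is what marks them for a closer look. Among the cyclins and Cdc25c, the log2 value of primed minus naive was -0.97 for Cdc25c, -0.93 for Ccnb2, -0.41 for Ccna2 and -0.35 for Ccnb1. Among kinetochore and passenger genes it was -0.88 for Spc24, -0.76 for Cdca8, -0.51 for Cenpa and -0.41 for Aurkb. For the cytokinesis genes it was -0.87 for Anln, -0.69 for Prc1 and -0.56 for Ect2. It was -0.39 for Aurka and -0.34 for Tpx2 at the spindle poles, and -0.51 for Mki67 and -0.29 for Top2a on the chromosomes. The 15 are 42.9% of the 35, beside 47.4% of all tested genes called lower in the same test, and 9 of the 15 are less negative than the median of all tested genes, -0.59. Of the 15 genes, 12 kept the sign after quantile normalization, 8 of them past the test, 15 kept it under loess and 5 under median centring.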

How the results depend on the processing

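Naive genes called lower (5 as deposited) numbered 3 with no filter, under median centring and with the replicate block, 18 after quantile normalization and under loess, 2 with library weights, 10 with each state fitted alone and 0 with limma without a trend, where 2 had an unadjusted p under 0.05. They numbered 1 to 9 when 1 library was left out. Naive genes called higher (0 as deposited) numbered 2 after quantile normalization and 1 under loess, beside 32% and 29.1% of all tested genes. Over all tested genes the share called lower was 5.85% as deposited, 2.85% with no filter and 17% under median centring. It was 27.2% after quantile normalization, 28.8% under loess and 4.27% with the replicate block. With library weights it was 5.47%, with each state alone 8.15% and without a trend 3.49%. The naive median was -0.15 under median centring and -0.15 to -0.056 with 1 library left out. Over all tested genes it was -0.073 to 0.18 with 1 library left out. Primed genes called lower (26) numbered 2 under median centring and 17 after quantile normalization, beside 23.6% and 35.1% of all tested genes. The number called lower changed with the library left out, as did that over all tested genes. Those called higher (0) numbered 15, 14 and 11 under median centring, quantile normalization and loess, beside 41.6%, 39% and 37.7% of all tested genes. The primed median was 0.23, -0.076 and -0.11 under these 3 scalings and -0.52 to -0.35 with 1 library left out. For the difference of effects, genes called lower (15) numbered 0 under median centring (also 0 at an unadjusted p under 0.05), 8 after quantile normalization, 6 without a trend and 7 to 29 with 1 library left out, and genes called higher (0) numbered 12, 17 and 15 under median centring, quantile normalization and loess, and 0 to 1 with 1 library left out. Its median was 0.41, 0.11 and 0.066 under the same scalings and -0.44 to -0.26 with 1 library left out. The median of the other pathway genes was 0.14 in the primed state under median centring, and for the difference 0.25, 0.040 and 0.052 under median centring, quantile normalization and loess. A pseudocount of 0.1 and a filter of 5 RPKM kept the counts of called members within 1.5 times those given. The cause of these changes was not tested.

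The replicate numbers gave a correlation of deviations of 0.31 in the naive and -0.036 in the primed state, and no source ties a number to a shared culture or day, so the numbers were not taken as pairs. With the replicate block the counts of lower genes were 3, 25 and 12 in the naive, primed and difference comparisons. Over all tested genes the shares there were 4.27%, 53.2% and 36.6%.

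The genes listed next passed the test as deposited or under the alternative named. Under median centring the median over all tested genes was 0.16, both for the primed state and for the difference of effects. A positive value there can therefore lie below that of most genes. Primed differences that turned positive under median centring were Cdk1 (0.29), Ccna2 (0.23), Ccnb1 (0.044), Aurka (0.010), Plk1 (0.10), Aurkb (0.056), Incenp (0.49), Birc5 (0.13), Bub1 (0.40), Bub1b (0.12), Mad2l1 (0.47), Ttk (0.45), Cdc20 (0.65), Cenpa (0.043), Cenpe (0.52), Cenpf (0.21), Ndc80 (0.61), Nuf2 (0.63), Spc25 (0.36), Kif11 (0.40), Kif2c (0.34), Kif4 (0.37), Tpx2 (0.19), Kif20a (0.58), Kif23 (0.31), Top2a (0.33), Mki67 (0.22). Those that turned positive after quantile normalization were Incenp (0.15), Bub1 (0.10), Mad2l1 (0.12), Ttk (0.32), Cdc20 (0.15), Cenpe (0.38), Cenpf (0.084), Ndc80 (0.45), Nuf2 (0.49), Spc25 (0.14), Kif11 (0.11), Kif2c (0.10), Kif4 (0.24), Kif20a (0.34), Kif23 (0.067). Under loess they were Incenp (0.069), Bub1 (0.039), Mad2l1 (0.048), Ttk (0.30), Cdc20 (0.19), Cenpe (0.35), Cenpf (0.068), Ndc80 (0.42), Nuf2 (0.46), Spc25 (0.12), Kif11 (0.061), Kif2c (0.083), Kif4 (0.23), Kif20a (0.30), Kif23 (0.026). Differences of the effects that turned positive under median centring were Ccna2 (0.34), Ccnb1 (0.41), Aurka (0.36), Aurkb (0.34), Bub1 (0.59), Bub3 (0.70), Mad2l1 (0.66), Ttk (0.45), Cenpa (0.24), Cenpe (0.46), Cenpf (0.36), Ndc80 (0.50), Nuf2 (0.66), Spc25 (0.48), Kif2c (0.70), Kif4 (0.40), Tpx2 (0.41), Prc1 (0.065), Ect2 (0.19), Top2a (0.46), Mki67 (0.24). After quantile normalization they were Aurka (0.017), Plk1 (0.15), Aurkb (0.018), Incenp (0.11), Birc5 (0.16), Bub1 (0.27), Bub3 (0.31), Mad2l1 (0.26), Ttk (0.31), Cenpe (0.30), Cenpf (0.22), Ndc80 (0.34), Nuf2 (0.51), Spc25 (0.24), Kif11 (0.16), Kif2c (0.44), Kif4 (0.25), Tpx2 (0.049), Kif23 (0.11). Under loess they were Birc5 (0.14), Bub1 (0.22), Bub3 (0.25), Mad2l1 (0.21), Ttk (0.30), Cdc20 (0.20), Cenpe (0.31), Cenpf (0.23), Ndc80 (0.31), Nuf2 (0.50), Spc25 (0.23), Kif11 (0.12), Kif2c (0.43), Kif4 (0.26). With depth unknown and 2 libraries a group, a difference that did not pass the test is not shown to be absent.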
